A study of Mus musculus with 6 samples.

Results

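The machinery of DNA replication was examined in macrophages from mouse pancreatic ductal adenocarcinoma through 49 genes, chosen by name: the origin recognition and licensing factors, the MCM helicase and the factors that activate it, the replicative polymerases, the sliding clamp and its loader, the single-strand binding protein RPA, the enzymes that finish Okazaki fragments, and the enzymes that supply deoxynucleotides. The choice was made with earlier results of these data known. All 49 genes were found, each as 1 row, among the 53647 genes of the deposited table. All 49 passed the filter on low counts. The macrophages came from tumours set up in the pancreas of C57BL/6 mice and were sorted by Cxcr4, the receptor for the chemokine Cxcl12, into 3 Cxcr4+ and 3 Cxcr4- libraries. The labels list Cxcr4+ and Cxcr4- under genotype, while the protocol describes a sort on Cxcr4; no other allele or agent is named. The labels do not give the tumour line, the age of the mice or the other sorting markers, nor do they say whether separate mice gave the libraries, so a p-value here sets a difference against the spread among libraries, which may be technical.

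DNA is copied once per cell cycle. Origins are marked by the origin recognition complex, on which Cdc6 and Cdt1 load the ring-shaped MCM helicase. Cdc45 and the GINS complex join the ring to open the strands, primase and polymerase alpha lay down primers, and polymerases delta and epsilon extend them with the clamp PCNA. Most of these genes are known targets of E2F transcription factors and are transcribed as cells enter S phase. Macrophages are often non-dividing, although tissue and tumour macrophages can proliferate locally.

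The libraries held 46444934 to 55740671 estimated counts, each Cxcr4+ library more than any Cxcr4- library. Of 12 macrophage markers, 8 averaged at least 1 FPKM, led by Lyz2 at 6344 FPKM, while Mrc1, C1qa, C1qb and C1qc averaged 0.0257, 0.232, 0.321 and 0.140 FPKM, each at 0 in at least 1 Cxcr4- library. Of 11 neutrophil genes 3 were listed at 0 throughout, S100a9, Camp and Ngp, and S100a8 was the 1 that averaged over 1 FPKM, at 6.57. Of 11 T and NK cell genes 6 were listed at 0 throughout, Cd8a and Trac among them, and Lck was the 1 over 1 FPKM, at 1.51. Ighm, a B cell transcript, averaged 34.1 FPKM. The libraries numbered 2 stood apart from the rest in a chi-square per degree of freedom, taken on counts divided by 4. Genes with low counts were left out of it. The chi-square was 17.9 for that pair and 22.2 to 35.1 for pairs of 1 of them with another library. Pairs among the other 4 gave 12.6 to 19.4. Fibroblast and matrix transcripts were high in Cxcr4+ replicate 1, where the list of 17 genes summed to 36.7 FPKM, with 7.32 FPKM in replicate 2 and 9.79 in replicate 3, against 4.03 to 9.80 FPKM among Cxcr4- libraries. Results below are therefore also given without these libraries.

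Replication genes were slightly higher as a group in Cxcr4+ macrophages, and none of them passed the test alone. Of the 49, 43 had a positive log2 fold change, or 87.8%, against 50.1% of all 16031 genes tested. Their median log2 fold change was 0.19, against 0.00041 over all genes tested. The edgeR quasi-likelihood test, at a threshold of 0.05 on the adjusted p, called 0 of the 49; it called 0.0312% of all tested genes, 0.0125% higher and 0.0187% lower. At an unadjusted p under 0.05 there were 9 of the 49, or 18.4%, against 4.85% of all tested genes. All 9 were higher in Cxcr4+ libraries, as were 2.66% of all tested genes. This count moved with the libraries: it was 4 without Cxcr4+ replicate 2, 4 without Cxcr4- replicate 3 and 5 without Cxcr4- replicate 1, where all tested genes gave 5.9%, 4.3% and 3.74%. It was also 4 when scaled by library totals alone, against 4.38% of all tested genes, and 20 with the libraries numbered 2 as a block, against 9.26%. DESeq2 called 1 of the 49, Pclaf, where it called 0.0882% of its tested genes higher, and limma-trend on log2(FPKM + 1) called 0. These counts describe the list and are not a test of it.

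**Figure D1:**
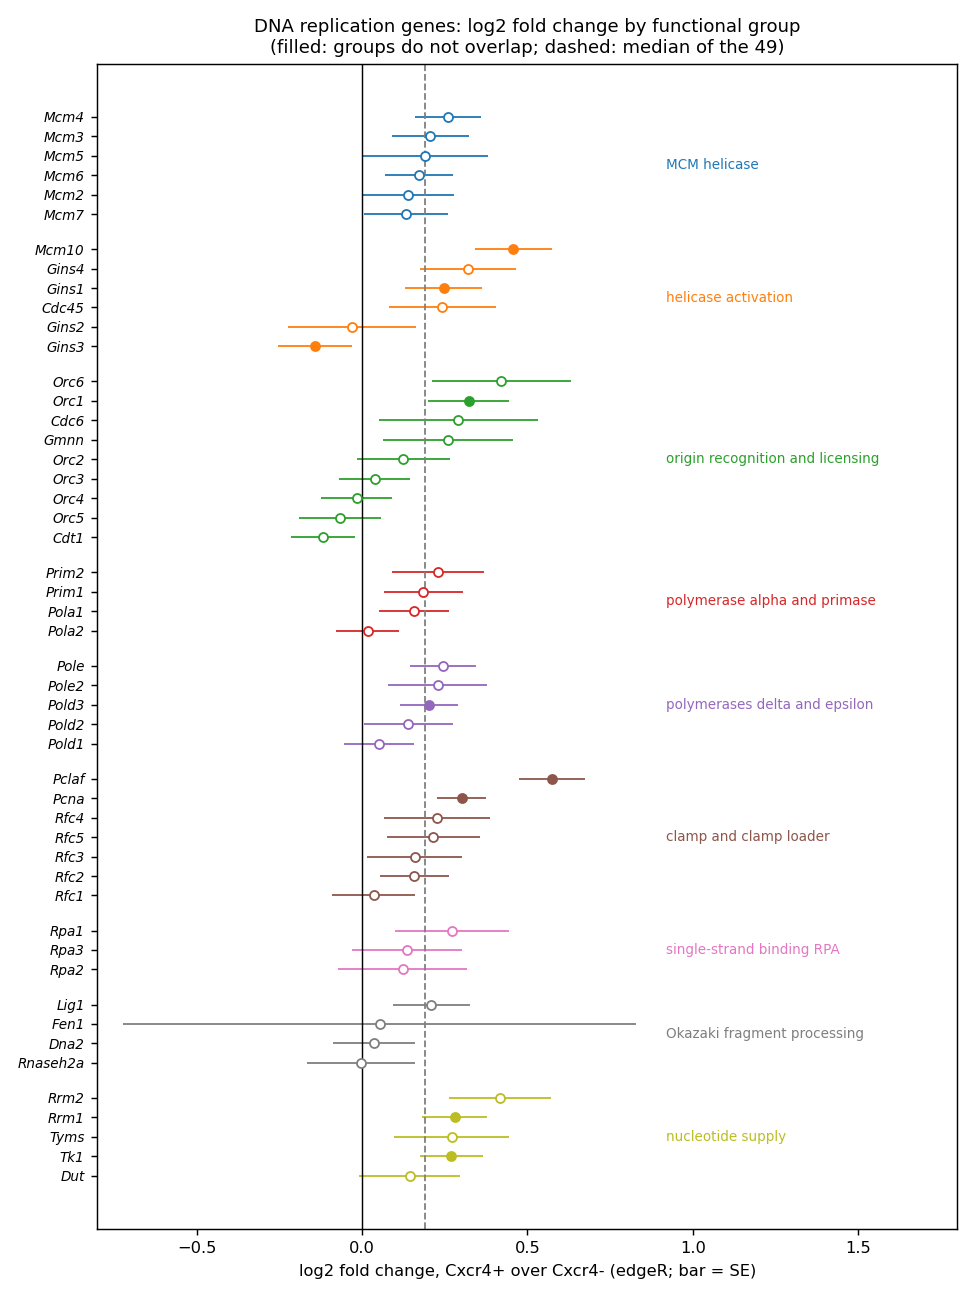
Log2 fold change of each of the 49 replication genes (x axis, Cxcr4+ over Cxcr4-, edgeR, bars show the SE), grouped by role down the page. 43 of the 49 points lie to the right of 0 and the dashed line marks their median of 0.19. Filled points are genes whose Cxcr4+ and Cxcr4- FPKM values did not overlap.

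The difference was uneven between libraries. Cxcr4+ replicate 2 held the highest FPKM for 38 of the 49 genes, a place it took for 27.2% of all tested genes. The lowest value lay in Cxcr4- replicate 3 for 23 genes and in Cxcr4- replicate 1 for 17, against 15.4% and 23.7% of all tested genes. In normalised counts (TMM), the median over the 49 genes of the log2 ratio of a library to the mean of the 6 was -0.019, 0.24 and 0.052 in the Cxcr4+ libraries, against -0.14, 0.0054 and -0.19 in the Cxcr4- libraries, so Cxcr4- replicate 2 lay above Cxcr4+ replicate 1 and the groups overlapped. Set against Cxcr4- replicate 2, Cxcr4+ replicates 1, 2 and 3 had the higher value for 23, 43 and 25 of the 49 genes. Against Cxcr4- replicates 1 and 3 the numbers ran from 37 to 43.

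The median stayed positive without the libraries that stood apart, while its size moved with them. Without Cxcr4+ replicate 2 the median was 0.11 and 37 genes were positive, and without Cxcr4- replicate 2 it was 0.26 with 43 positive. In the libraries numbered 1 and 3 alone, a selection made after seeing the data, 40 were positive with a median of 0.15. When Cxcr4+ replicate 1, where fibroblast transcripts were highest, was left out, 44 were positive and the median was 0.24. In bulk RNA, a larger share of cells in S phase and more of these transcripts per cell cannot be told apart.

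**Figure D2:**
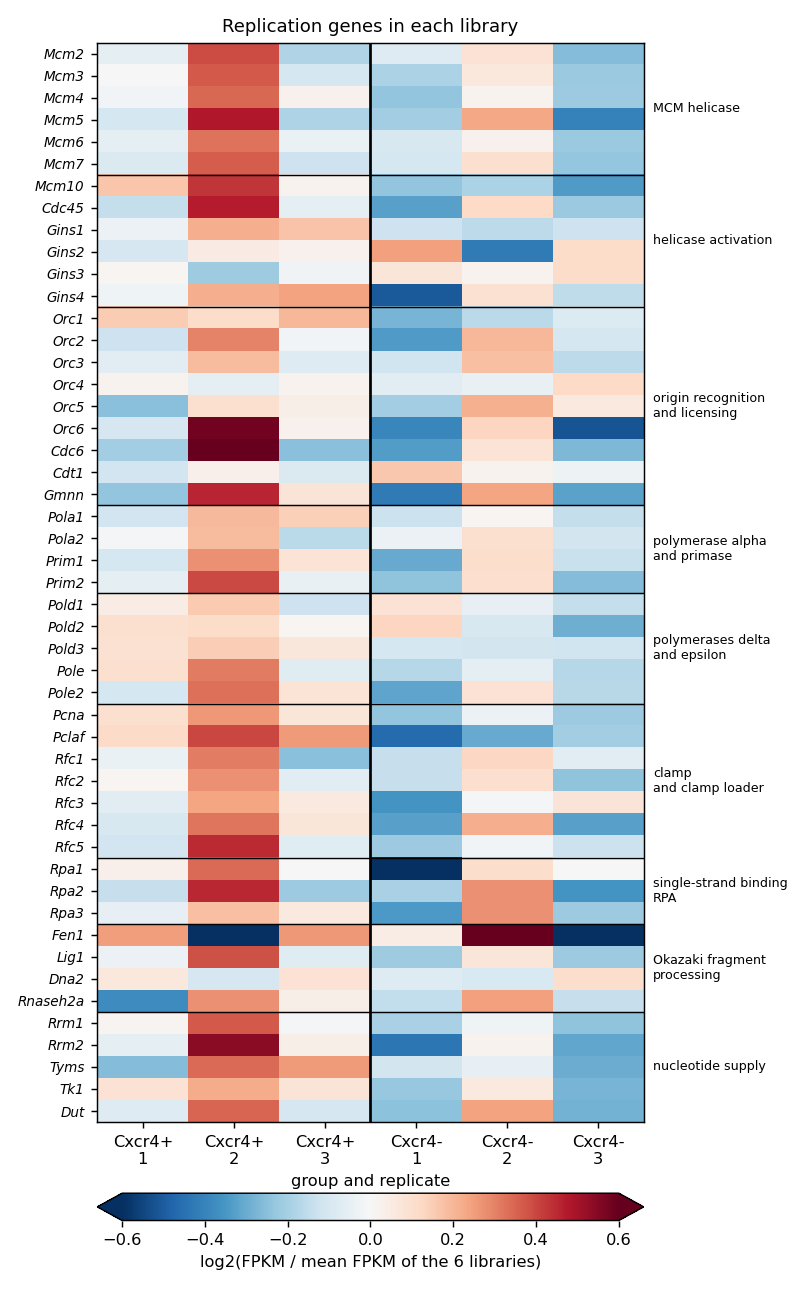
Level of each of the 49 genes in each library, as log2 of FPKM over the mean FPKM of the 6 libraries (colour, limited at both ends of the scale), with Cxcr4+ libraries left of the black line and Cxcr4- libraries right of it. The column of Cxcr4+ replicate 2 is red for most rows, since it held the highest value of 38 genes, and Fen1 shows both extremes.

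Groups of values did not overlap for 9 of the 49 genes, and for 10.4% of all tested genes. The Cxcr4+ libraries were all higher for 8, Mcm10, Gins1, Orc1, Pold3, Pcna, Pclaf, Rrm1 and Tk1, where 5.5% of all tested genes had that order. They were all lower for 1, Gins3, where 4.87% of all tested genes had that order. On counts scaled by DESeq2 size factors, 13 of the 49 lay higher and 0 lower, against 5.91% and 5.1% of all tested genes. The smallest p that an exact two-sided permutation test of 3 against 3 libraries can give is 0.1. In the libraries numbered 1 and 3 alone, 31 of the 49 lay higher without overlap and 3 lower, where the shares of all tested genes were 20.8% and 18.9%, or 39.7% together. Without Cxcr4- replicate 2, 30 lay higher and 2 lower, against 14.9% and 9.43% of all tested genes, or 24.4% together. Without Cxcr4+ replicate 1, 13 lay higher and 1 lower, against 10.3% and 8.73% of all tested genes, or 19% together.

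Promoters of these genes were read for the letters that E2F factors bind, because most of these genes are known E2F targets. Whether E2F had a part in the direction that most of them shared was not tested. RefSeq promoter windows (build GRCm38.p6, 250 bases before to 50 after each start) were matched by symbol for 41 of the 49 genes. The letters searched were TTTCCCGC, TTTGGCGC, TTTCGCGC and TTTGCCGC on both strands. They were found in 16 of the 41 genes, or 39.0%, where 2.605% of 27025 genes with a window held them. The 27025 genes were not limited to those tested here, so the promoter shares have another basis than the shares above. CCAAT was held by 25 of the 41, or 61.0%, against 41.1% of all genes, the GC box GGGCGG by 30 of the 41, or 73.2%, against 38.2%, and TTTGAA, the core of the CHR element of mitotic genes, by 5 of the 41, or 12.2%, against 20.2%. Of the 22 E2F matches, 1, in Mcm7, overlapped a CCAAT match, and pairs of E2F matches overlapped each other in Mcm5 and Mcm6. A match describes the letters and is not a site of binding.

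The stretches shown are those of Mcm5 and Mcm6, in which matches on opposite strands overlap, of Orc1 and Pclaf, whose values did not overlap between groups, and of Gins3, the 1 gene whose Cxcr4+ values all lay below its Cxcr4- values. Capitals mark the E2F letters, and each runs 5′ to 3′ on the strand of its gene.
Mcm5: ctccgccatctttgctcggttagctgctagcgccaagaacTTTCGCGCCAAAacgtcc
Mcm6: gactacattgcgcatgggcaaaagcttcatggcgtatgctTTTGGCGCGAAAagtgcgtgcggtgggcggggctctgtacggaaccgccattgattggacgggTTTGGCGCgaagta
Orc1: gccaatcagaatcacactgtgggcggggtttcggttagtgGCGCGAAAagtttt
Pclaf: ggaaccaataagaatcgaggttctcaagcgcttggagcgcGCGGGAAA
Gins3: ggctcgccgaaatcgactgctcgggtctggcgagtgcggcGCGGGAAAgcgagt
They lie in GRCm38.p6 at chr8:75109316-75109373 (forward strand), chr1:128359739-128359855 (reverse strand), chr4:108579387-108579440 (forward strand), chr9:65890278-65890325 (forward strand) and chr8:95633478-95633531 (forward strand). Counted from the start of the gene, the first capital stands at -153 in Mcm5, -110 in Mcm6, -27 in Orc1, -5 in Pclaf and -41 in Gins3. The 16 genes with the letters had a median log2 fold change of 0.18 with 14 positive, and the 25 genes with a window but without the letters had 0.14 with 22 positive. Windows of Pcna, Rrm2, Rrm1, Mcm10 and Tk1, 5 of the 9 genes with the smallest p-values, did not hold these exact letters, which says nothing about E2F at these genes.

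**Figure D3:**
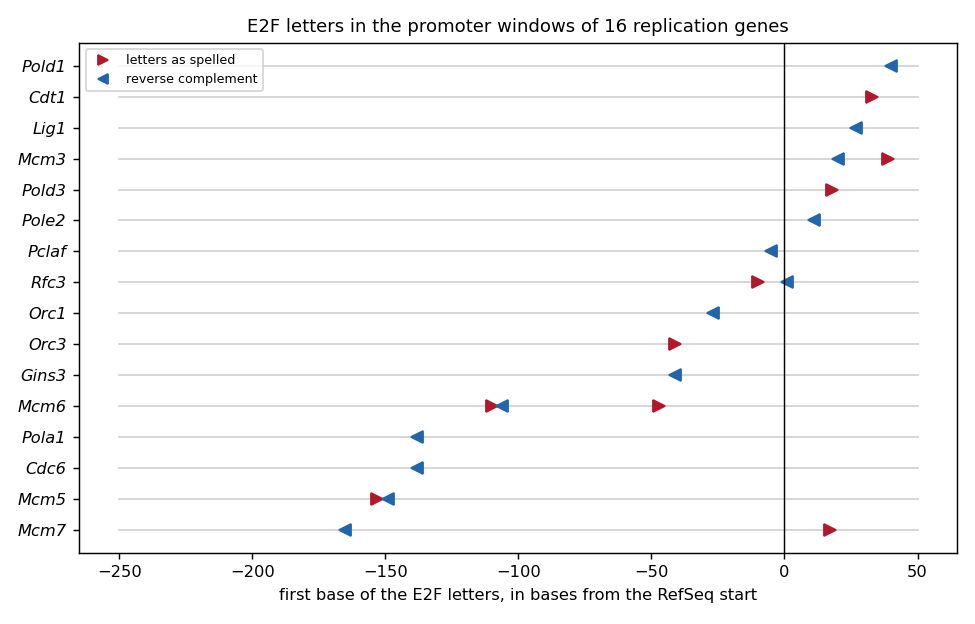
Position of the E2F letters in the promoter windows of the 16 replication genes that held them (x axis, bases from the RefSeq start, 250 before it to 50 after it), with red for the letters as spelled and blue for their reverse complement. Matches run from -165 in Mcm7 to 40 in Pold1, and Mcm5 and Mcm6 show pairs in opposite orientation.

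Origin recognition and licensing genes were mixed. Of 9 genes, 6 were positive in log2 fold change and the median was 0.13. Orc1, the ATPase subunit of the origin recognition complex whose level is regulated through the cell cycle (chromosome 4, 108436620 to 108452777, forward strand, in GRCm39, the build of all gene coordinates here), had 4.17, 4.07 and 4.32 FPKM in the Cxcr4+ libraries, against 3.10, 3.36 and 3.55 in the Cxcr4- libraries (edgeR adjusted p = 0.998, log2 fold change 0.32 with an SE of 0.12). Its lowest Cxcr4+ value lay above its highest Cxcr4- value. Orc6, the smallest subunit of that complex, had 4.33, 6.95 and 4.73 FPKM in the Cxcr4+ libraries, against 3.55, 5.08 and 3.25 in the Cxcr4- libraries (edgeR adjusted p = 0.999, log2 fold change 0.42 with an SE of 0.21). Its Cxcr4+ replicate 2 was highest, and Cxcr4+ replicates 1 and 3 lay below Cxcr4- replicate 2. The core subunits Orc2, Orc3, Orc4 and Orc5 had log2 fold changes of 0.13, 0.039, -0.016 and -0.067, each within 1 SE of 0.

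The loading factors and their inhibitor did not move one way. Cdt1, which brings MCM to the origin, had the highest level of the licensing genes, 18.7, 20.6 and 19.0 FPKM in the Cxcr4+ libraries, against 22.6, 20.4 and 19.8 in the Cxcr4- libraries (edgeR adjusted p = 0.999, log2 fold change -0.12 with an SE of 0.10). The groups overlapped, with Cxcr4- replicate 1 highest. Its inhibitor geminin, Gmnn, had 15.6, 25.3 and 19.4 FPKM in the Cxcr4+ libraries, against 13.8, 21.7 and 14.8 in the Cxcr4- libraries, a log2 fold change of 0.26. In each group replicate 2 was the highest library for Gmnn. Cdc6, the ATPase that loads MCM together with Cdt1, had 2.27, 4.24 and 2.20 FPKM in the Cxcr4+ libraries, against 2.08, 2.78 and 2.18 in the Cxcr4- libraries (log2 fold change 0.29). Without Cxcr4+ replicate 2 its log2 fold change was -0.035, so its sign turned there.

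All 6 genes of the MCM ring, Mcm2 to Mcm7, had positive log2 fold changes in a narrow range, 0.13 to 0.26, with a median of 0.18. Their proteins form a ring with 1 copy of each. Their mean FPKM over the 6 libraries ran from 10.7 for Mcm2 to 27.0 for Mcm5. The largest log2 fold change was that of Mcm4, with 18.4, 23.6 and 18.9 FPKM in the Cxcr4+ libraries, against 15.8, 18.9 and 15.996 in the Cxcr4- libraries (edgeR adjusted p = 0.998, log2 fold change 0.26 with an SE of 0.10). Only the Cxcr4- replicate 2 value overlapped with the Cxcr4+ values. Mcm3 had 22.8, 29.5 and 21.2 FPKM in the Cxcr4+ libraries, against 19.985, 23.9 and 19.5 in the Cxcr4- libraries (edgeR adjusted p = 0.999, log2 fold change 0.21 with an SE of 0.12). Mcm5 had 25.1, 37.7 and 23.8 FPKM in the Cxcr4+ libraries, against 23.4, 31.7 and 20.4 in the Cxcr4- libraries (edgeR adjusted p = 0.9997, log2 fold change 0.19 with an SE of 0.19). For all 6 genes Cxcr4+ replicate 2 was the highest library and Cxcr4- replicate 2 the highest Cxcr4- library. The summed FPKM of the ring was 116, 158 and 113 in the Cxcr4+ libraries, against 108, 129 and 100.5 in the Cxcr4- libraries. Without Cxcr4+ replicate 2 the log2 fold changes of Mcm2 and Mcm5 were -0.0093 and -0.0042. Mcm7 lies across the genes Cops6 and Ap4m1 on the other strand. Whether the authors' counting used strand is not given in the sources used here. Of the 49 genes, 14 overlap a gene that averaged at least 1 FPKM, Orc6, Rnaseh2a, Cdc45 and Tk1 among them. Vps35 across Orc6 averaged 15.6 FPKM, and Prdx2 across Rnaseh2a 36.7 FPKM.

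Among the factors that turn the loaded ring into a moving helicase, Mcm10 and Gins3 differed in direction. Mcm10, a scaffold needed to start the helicase (chromosome 2, 4994525 to 5017602, reverse strand), averaged 3.30 ± 0.481 FPKM in Cxcr4+ and 2.38 ± 0.126 FPKM in Cxcr4- macrophages (SD, n = 3 each). By library it had 3.19, 3.82 and 2.88 FPKM in the Cxcr4+ libraries, against 2.41, 2.49 and 2.24 in the Cxcr4- libraries (edgeR adjusted p = 0.953, log2 fold change 0.46 with an SE of 0.12). The groups did not overlap, and the log2 fold change was 0.38 to 0.53 when any 1 library was left out. Cdc45, the helicase subunit outside the ring, had a log2 fold change of 0.24 with overlapping groups.

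The 4 GINS genes, whose products form a single complex in equal numbers, were split. Gins4 had 19.1, 22.6 and 23.0 FPKM in the Cxcr4+ libraries, against 13.7, 20.7 and 17.5 in the Cxcr4- libraries (edgeR adjusted p = 0.999, log2 fold change 0.32 with an SE of 0.14). Gins1 had 10.7, 12.8 and 12.4 FPKM in the Cxcr4+ libraries, against 10.1, 9.86 and 10.1 in the Cxcr4- libraries (edgeR adjusted p = 0.999, log2 fold change 0.25 with an SE of 0.12), with no overlap between groups. Gins2 had a log2 fold change of -0.03, and its sign turned under several alternatives. Gins3, with the highest level of the 4, had 38.0, 32.5 and 37.1 FPKM in the Cxcr4+ libraries, against 39.6, 38.3 and 40.7 in the Cxcr4- libraries (edgeR adjusted p = 0.999, log2 fold change -0.14 with an SE of 0.11). Every Cxcr4+ library lay below every Cxcr4- library for Gins3 on the FPKM scale, while with DESeq2 size factors 0 of the 49 genes had that order. Gins3 averaged 37.7 FPKM, against 10.974 for Gins1, 9.23 for Gins2 and 19.4 for Gins4.

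The primer-making enzyme, polymerase alpha with primase, had 4 of 4 positive log2 fold changes with a median of 0.17 and no gene without overlap. Prim1, the catalytic primase subunit, had 6.72, 8.75 and 7.66 FPKM in the Cxcr4+ libraries, against 5.87, 7.79 and 6.60 in the Cxcr4- libraries (edgeR adjusted p = 0.999, log2 fold change 0.19 with an SE of 0.12), the highest mean level of the 4 genes. Prim2, the large primase subunit, had 3.48, 4.77 and 3.53 FPKM in the Cxcr4+ libraries, against 3.07, 3.90 and 3.03 in the Cxcr4- libraries (edgeR adjusted p = 0.999, log2 fold change 0.23 with an SE of 0.14). In both genes Cxcr4- replicate 2 lay above Cxcr4+ replicates 1 and 3. Pola1, the catalytic polymerase subunit, and Pola2, its accessory subunit, had log2 fold changes of 0.16 and 0.017.

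The polymerases that extend the primers, delta on the lagging and epsilon on the leading strand, had 5 of 5 positive log2 fold changes, with a median of 0.20. Pold3, an accessory subunit of polymerase delta, had 8.64, 8.97 and 8.50 FPKM in the Cxcr4+ libraries, against 7.55, 7.53 and 7.48 in the Cxcr4- libraries (edgeR adjusted p = 0.999, log2 fold change 0.20 with an SE of 0.087). The groups did not overlap for Pold3. Pole, the catalytic subunit of polymerase epsilon, had 4.09, 4.75 and 3.64 FPKM in the Cxcr4+ libraries, against 3.40, 3.67 and 3.39 in the Cxcr4- libraries (edgeR adjusted p = 0.999, log2 fold change 0.24 with an SE of 0.10), with overlap through Cxcr4+ replicate 3 and Cxcr4- replicate 2. Pold1, the catalytic subunit of polymerase delta and the gene of this group with the highest level, had 21.3, 23.1 and 19.0 FPKM in the Cxcr4+ libraries, against 21.9, 20.008 and 18.7 in the Cxcr4- libraries (edgeR adjusted p = 0.9997, log2 fold change 0.051 with an SE of 0.10). The groups overlapped for Pold1. The accessory subunits Pold2 and Pole2 had log2 fold changes of 0.14 and 0.23.

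The clamp genes carried the smallest p-values of the 49. Pclaf, a small protein that binds PCNA and is abundant in dividing cells (chromosome 9, 65797519 to 65810548, forward strand), averaged 15.1 ± 1.48 FPKM in Cxcr4+ and 10.1 ± 0.884 FPKM in Cxcr4- macrophages (SD, n = 3 each), a ratio of means of 1.497. By library it had 13.7, 16.7 and 15.1 FPKM in the Cxcr4+ libraries, against 9.18, 10.2 and 10.9 in the Cxcr4- libraries (edgeR adjusted p = 0.457, log2 fold change 0.57 with an SE of 0.10). The lowest Cxcr4+ library lay well above the highest Cxcr4- library. DESeq2 called Pclaf (log2 fold change 0.58, adjusted p = 0.00524 by DESeq2), while over all alternatives its adjusted p ran from 0.00524 to 0.9996 and its log2 fold change from 0.51 to 0.64. Pclaf overlaps Trip4, which lies on the other strand at 2.68 ± 0.382 FPKM in Cxcr4+ and 2.44 ± 0.273 FPKM in Cxcr4- macrophages (SD, n = 3 each).

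Pcna, the ring-shaped clamp that holds polymerases on DNA (chromosome 2, 132091082 to 132095234, reverse strand), had the highest FPKM of the 49 genes. Its values were 106, 119 and 104 FPKM in the Cxcr4+ libraries, against 84.0, 96.5 and 85.1 in the Cxcr4- libraries (edgeR adjusted p = 0.927, log2 fold change 0.30 with an SE of 0.074). No Cxcr4- value reached the lowest Cxcr4+ value, and the log2 fold change was 0.28 to 0.33 when any 1 library was left out. A pseudogene copy, Pcna-ps2, was listed at 1.36 to 5.40 FPKM, so a small part of the reads may be split between the copies and the Pcna level is uncertain by that part. The 5 subunits of the clamp loader that opens this ring, Rfc1 to Rfc5, had log2 fold changes from 0.035 for Rfc1, the large subunit, to 0.23 for Rfc4, and their groups overlapped. Rfc2, Rfc4 and Rfc5 lie across other expressed genes, Lat2, Eif4a2 and Wsb2.

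RPA, which coats single-stranded DNA, had 3 of 3 positive log2 fold changes with a median of 0.14. Rpa1, the large subunit and the highest of the 3, had 16.4, 20.4 and 16.1 FPKM in the Cxcr4+ libraries, against 10.3, 17.3 and 16.1 in the Cxcr4- libraries (edgeR adjusted p = 0.999, log2 fold change 0.27 with an SE of 0.17). Cxcr4- replicate 1 was far lower than the rest, and without it the log2 fold change was 0.095. Rpa3, the small subunit, had 7.77, 9.13 and 8.38 FPKM in the Cxcr4+ libraries, against 6.34, 9.74 and 6.91 in the Cxcr4- libraries (edgeR adjusted p = 0.9997, log2 fold change 0.14 with an SE of 0.17). Its highest value lay in a Cxcr4- library. Rpa2 had a log2 fold change of 0.12, and without Cxcr4+ replicate 2 one of -0.075.

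Genes of Okazaki fragment processing had the smallest median of the 9 sets, 0.045, with 3 of 4 positive. Lig1, the ligase that seals the fragments, had 19.8, 26.5 and 19.3 FPKM in the Cxcr4+ libraries, against 17.5, 21.4 and 17.5 in the Cxcr4- libraries (edgeR adjusted p = 0.999, log2 fold change 0.21 with an SE of 0.12). Only Cxcr4- replicate 2 overlapped with the Cxcr4+ libraries. Dna2, a nuclease that trims long flaps, had 5.66, 5.06 and 5.75 FPKM in the Cxcr4+ libraries, against 5.13, 5.07 and 5.82 in the Cxcr4- libraries (edgeR adjusted p = 0.9997, log2 fold change 0.036 with an SE of 0.12). The groups overlapped almost fully for Dna2. Rnaseh2a, the catalytic subunit of the enzyme that removes RNA from primers, had a log2 fold change of -0.0026.

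Fen1, the nuclease that cuts the flaps, stood apart from the other 48 genes in its spread (chromosome 19, 10176496 to 10181533, reverse strand). It had 9.12, 4.88 and 9.20 FPKM in the Cxcr4+ libraries, against 7.92, 14.1 and 0.828 in the Cxcr4- libraries, or 1395, 696 and 1314 counts against 1090, 1907 and 107 counts. Both the highest and the lowest library were Cxcr4- libraries, and the SE of its log2 fold change was 0.77, where the median SE of the 49 genes was 0.13. Its log2 fold change of 0.053 was -0.47 without Cxcr4- replicate 3, 0.78 without Cxcr4- replicate 2 and 1.04 in the libraries numbered 1 and 3 alone. Fen1 overlaps Tmem258 on the other strand, which varied little between libraries, from 31.1 to 36.0 FPKM. How the reads in the shared stretch were assigned was not tested.

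All 5 genes of nucleotide supply had positive log2 fold changes, with a median of 0.27, the highest of the 9 sets. The summed FPKM of the 5 was 65.3, 89.2 and 67.0 in the Cxcr4+ libraries, against 54.3, 70.9 and 54.8 in the Cxcr4- libraries. Rrm2, the small subunit of ribonucleotide reductase and its regulated part in the cell cycle (chromosome 12, 24758240 to 24764145, forward strand), had 24.7, 37.5 and 26.4 FPKM in the Cxcr4+ libraries, against 19.1, 26.2 and 20.7 in the Cxcr4- libraries (edgeR adjusted p = 0.998, log2 fold change 0.42 with an SE of 0.15). Only Cxcr4- replicate 2 reached into the Cxcr4+ range for Rrm2, and without Cxcr4+ replicate 2 the log2 fold change was 0.25. Rrm1, the large subunit, had 12.1, 15.5 and 11.9 FPKM in the Cxcr4+ libraries, against 10.458, 11.7 and 10.1 in the Cxcr4- libraries (edgeR adjusted p = 0.998, log2 fold change 0.28 with an SE of 0.10), and its groups did not overlap.

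Tk1, the thymidine kinase that salvages thymidine in S phase, had 9.14, 10.1 and 9.09 FPKM in the Cxcr4+ libraries, against 7.35, 8.97 and 7.09 in the Cxcr4- libraries (edgeR adjusted p = 0.998, log2 fold change 0.27 with an SE of 0.10). Its lowest Cxcr4+ value stood just above its highest Cxcr4- value. Tyms, which makes thymidylate from deoxyuridylate, was the least abundant of the 49 genes, at 1.33 to 2.07 FPKM over all libraries, with a log2 fold change of 0.27. Dut, which removes dUTP before it can be built into DNA, had a log2 fold change of 0.14, and its groups overlapped.

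**Figure D4:**
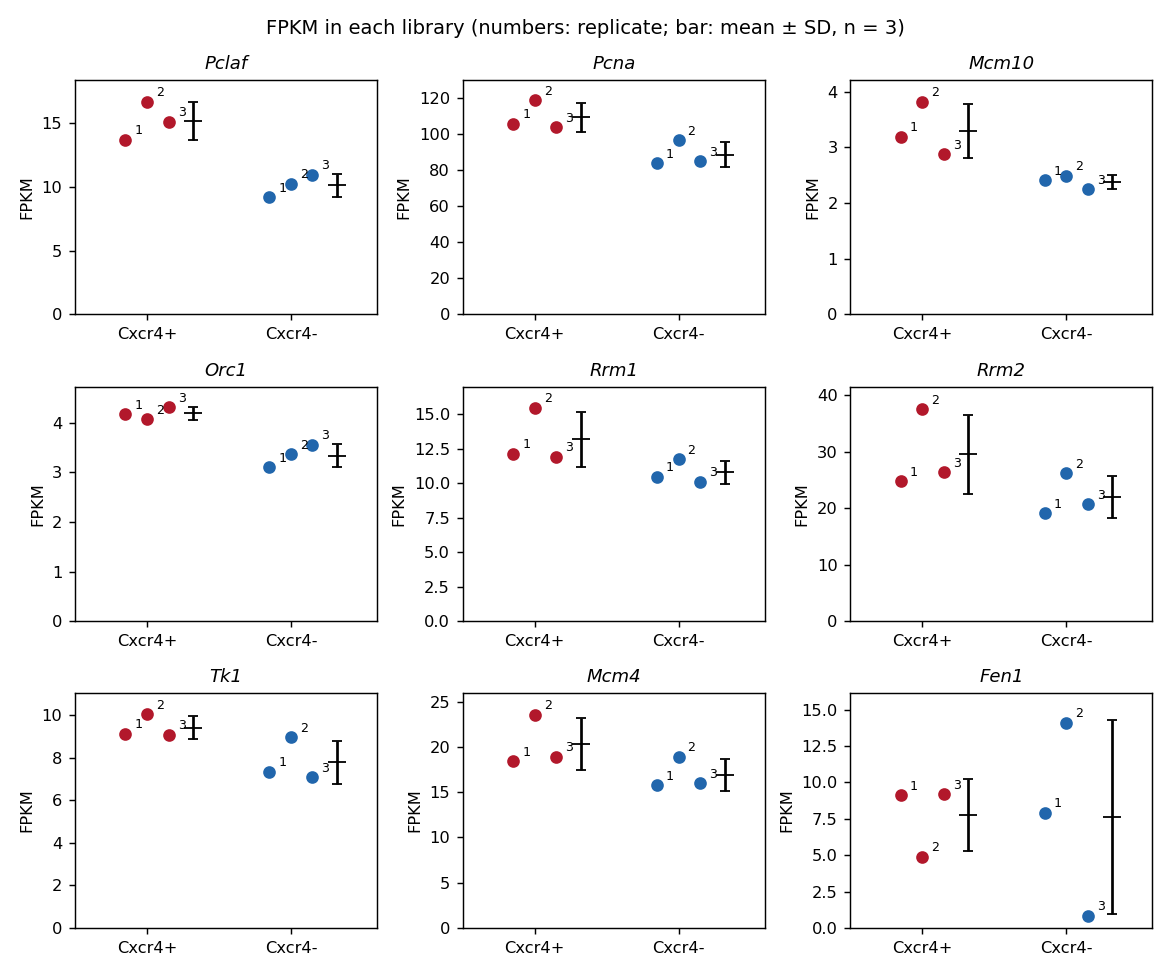
FPKM (y axis, from 0) of 9 replication genes in each library, with Cxcr4+ (red) left of Cxcr4- (blue), the replicate number beside each point and the mean ± SD (n = 3) at the right of each group. The groups do not overlap for Pclaf, Pcna, Mcm10, Orc1, Rrm1 and Tk1, they overlap through Cxcr4- replicate 2 for Rrm2 and Mcm4, and Fen1 spans 0.828 to 14.1 FPKM within the Cxcr4- libraries.

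Of 26 other initiation and fork factors, 0 were called by edgeR and 23 were positive in log2 fold change (median 0.14). An unadjusted p under 0.05 was found for 5 of them, and for 4.85% of all tested genes. Dbf4, the activating subunit of the Cdc7 kinase that fires origins, had 5.02 ± 0.124 FPKM in Cxcr4+ and 4.17 ± 0.224 FPKM in Cxcr4- macrophages (SD, n = 3 each). Ticrr, which helps Cdc45 to join, had 1.53 ± 0.115 FPKM in Cxcr4+ and 1.13 ± 0.181 FPKM in Cxcr4- macrophages (SD, n = 3 each). The groups did not overlap for Dbf4 or Ticrr. Rnaseh2c, a partner of Rnaseh2a, had a log2 fold change of 0.32. All 8 listed chromatin and histone factors tied to replication had positive log2 fold changes, with a median of 0.24 and 0 called. Among them were the histone chaperones Asf1b (0.31) and Chaf1a (0.26) and the methylation reader Uhrf1 (0.22).

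Nucleotide metabolism beyond the 5 genes above was divided in direction. Of 25 other genes, 14 were positive, the median was 0.045 and 0 were called by edgeR. An unadjusted p under 0.05 was found for 2 of the 25, and for 4.85% of all tested genes. Cmpk1, a nucleoside monophosphate kinase, and Dck, which salvages deoxycytidine, had log2 fold changes of 0.24 and 0.30. The groups of Cmpk1 and Dck did not overlap. Nme2, a nucleoside diphosphate kinase and the highest of the 25, had one of -0.14.

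General markers of dividing cells had 14 of 14 positive log2 fold changes and a median of 0.34. None of the 14 was called by edgeR, and 7 had an unadjusted p under 0.05, as did 4.85% of all tested genes. Top2a belongs both to this list and to that of the other initiation and fork factors. Mki67, the antigen used to score cycling cells, had 20.8, 16.8 and 19.3 FPKM in the Cxcr4+ libraries, against 15.1, 12.1 and 14.9 in the Cxcr4- libraries, with no overlap. In each group replicate 2 was its lowest library, whereas Cxcr4+ replicate 2 was the highest library for 38 of the 49 replication genes. Ccna2, cyclin A2, had a log2 fold change of 0.44. Cxcr4+ replicate 2 had the highest summed FPKM of this list, 196, with 165 and 183 in the other Cxcr4+ libraries, against 136, 154 and 149 in the Cxcr4- libraries.

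None of the marker genes of other cell types was called by edgeR, but some of their lists leaned to 1 group, and their part in the replication values was not tested. Fibroblast and matrix genes had 14 of 15 tested members positive, with a median log2 fold change of 1.58. In this list 5 genes had no overlap, all higher in Cxcr4+ libraries, where 5.5% of all tested genes had that order. Among them Pdgfra had 47, 14 and 14 counts in the Cxcr4+ libraries, against 12, 0 and 0 in the Cxcr4- libraries. Acta2, the highest of the list, averaged 3.85 FPKM and had 9.88 FPKM in Cxcr4+ replicate 1. The smallest p-values were those of Col6a1, Sparc and Col3a1, with log2 fold changes of 2.38, 1.91 and 2.12 (edgeR adjusted p = 0.953 for each). Lum was listed at 0 in every library, and Dcn and Pdgfra averaged 0.0155 and 0.0229 FPKM. Tumour and ductal epithelial genes had 0 of 10 positive, with sums of 1.94, 3.31 and 3.50 FPKM in the Cxcr4+ libraries, against 3.80, 6.55 and 6.81 FPKM in the Cxcr4- libraries. Of these genes 4 had no overlap, all lower in Cxcr4+ libraries, where 4.87% of all tested genes had that order. Epcam averaged 0.440 FPKM over the 6 libraries. Neutrophil genes had 0 of 2 tested members positive, T and NK cell genes 1 of 1, B and plasma cell genes 1 of 3 and endothelial genes 4 of 4, the last with sums of at most 0.455 FPKM. Macrophage markers had 6 of 10 positive, with a median log2 fold change of 0.086. Of the 12 listed, 2 had no overlap with Cxcr4+ libraries higher, and 1 had none with Cxcr4+ libraries lower. The 2 were C1qa and C1qb, which averaged 0.232 and 0.321 FPKM. Of all tested genes, 5.5% and 4.87% had these orders.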

How the data were processed

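Total RNA of sorted tumour macrophages was sequenced in 6 libraries, 3 per group. The tools named in the submitters' processing notes are cutadapt, HISAT2 and StringTie, with the build GRCm39; no version, annotation or strand setting is stated there. The authors deposited estimated counts and FPKM for 53647 genes per the file headers. The deposited expected counts were whole numbers, so rounding changed 0 values, but 43.2% of those between 1 and 20 were multiples of 4 (25% if even), so a count is not always 1 read. FPKM, which the authors scaled to gene length and library size, were read as 0 where the count was 0. The smallest count of a member in a library was 107 (Fen1), and 410 for any other member.

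The counts were tested with edgeR 4.0.16 under R 4.3.3 (quasi-likelihood, earlier dispersion method, filterByExpr with minimum count 10 and minimum total 15, TMM, group as the sole term), as the difference of Cxcr4+ from Cxcr4-. After filtering 16031 genes remained, and p-values were adjusted over all of them by Benjamini-Hochberg at 0.05. The SE is the log2 fold change divided by the root of F. The procedure was tested on simulated data, with changes larger in size than that of any of the 49 genes in this fit. The simulation therefore does not show how often changes of the size seen here would be called. All pairs of libraries differed beyond sampling noise. DESeq2 1.42.0, limma 3.58.1, other scalings and filters, counts divided by 4, replicate and library blocks and leaving out each library were alternatives; the libraries numbered 1 and 3 alone were added after seeing the data.

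Members and lists were chosen with earlier results of these data known. Values in every library are given for the 2 genes of smallest p and the gene of highest mean FPKM in each of the 9 sets, and for Gins1, Gmnn, Cdc6 and Fen1, which were added after their values were seen. In other lists up to 3 genes of smallest p are named, with genes of highest FPKM and, chosen after their values were seen, markers at or near 0; some genes of these lists are not reported here. Cxcr4 RNA, read as a check of the sort, had 9.27 ± 0.285 FPKM in Cxcr4+ and 7.42 ± 1.32 FPKM in Cxcr4- macrophages (SD, n = 3 each) and was not called by edgeR (adjusted p = 0.999, log2 fold change 0.27 with an SE of 0.19). Figures were drawn with matplotlib 3.10.9.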

Additional observations from a re-analysis of the deposited data

How the results depend on the processing

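Under all 17 alternatives, including the libraries numbered 1 and 3 alone, the median log2 fold change of the 49 replication genes stayed positive, and 37 to 44 genes were positive. Leaving out 1 library gave medians of 0.11 to 0.26. DESeq2 called 1 of the 49, and the other 16 alternatives called 0. Over all genes tested edgeR called 5; DESeq2 called 53, limma-trend on log2(FPKM + 1) 2, and leaving out 1 library gave 1 to 9 calls. Groups without overlap numbered 9 of the 49, 13 on counts scaled by DESeq2 size factors, 34 in the libraries numbered 1 and 3 alone (39.7% of all tested genes), and 9 to 32 when 1 library was left out, the highest without Cxcr4- replicate 2 (24.4% of all tested genes) and 14 without Cxcr4+ replicate 1 (19% of all tested genes). With the replicate number as a block 0 of all genes and 0 of the 49 were called, 1495 of all 16031 genes and 20 of the 49 had an unadjusted p under 0.05, and the median was 0.20. Over the alternatives that count ran from 4 to 20 of the 49, and from 4 to 11 when 1 library was left out. The numbers were not taken to pair the libraries: deviations from the group mean correlated at 0.092, 0.24 and 0.090 for numbers 1, 2 and 3. Each library correlated best with its own number, a hint from the data and not the design. Libraries 1 and 3 of unlike number correlated at 0.078 and 0.043, so that lead was small for them. Deviations in a group sum to 0, so the libraries numbered 2 also shape these values.

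The sign held in every alternative for 35 genes and turned in at least 1 for 14, all with an adjusted p over 0.05. Gins2 turned to 0.0092 and 0.013 in limma-trend on log2(FPKM + 1) and log2(FPKM + 0.1), 0.0064 with the replicate block and 0.0053 with the libraries numbered 2 as a block; Rnaseh2a to 0.0030 in DESeq2. In the libraries numbered 1 and 3 alone Pola2, Pold1 and Rfc1 turned to -0.023, -0.024 and -0.049. Leaving out 1 library gave -0.0093 to 0.23 for Mcm2, -0.0042 to 0.35 for Mcm5, -0.23 to 0.14 for Gins2, -0.014 to 0.11 for Orc3, -0.073 to 0.054 for Orc4, -0.15 to 0.016 for Orc5, -0.035 to 0.44 for Cdc6, -0.042 to 0.081 for Pola2, -0.088 to 0.14 for Rfc1, -0.075 to 0.28 for Rpa2, -0.47 to 0.78 for Fen1, -0.032 to 0.12 for Dna2 and -0.12 to 0.14 for Rnaseh2a. The cause was not tested. The median SE of the 49 log2 fold changes was 0.13.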
